A study of Homo sapiens with 240 samples.

Results

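The response of HEK 293T cells carrying wild-type FNIP1 (WT FNIP1) to 991 was followed over 16 h. HEK 293T is an established human embryonic kidney line that carries the SV40 large T antigen, and 991 is a small molecule that activates AMPK directly. These cells gave 15 of the series' 240 libraries and 5 of its 80 groups, with 3 libraries in each group: vehicle (DMSO, labelled 0 h) and 991 for 2, 4, 8 or 16 h. Libraries were chosen by their labels alone, and each time with 991 was compared with the same 3 DMSO libraries. All cells were grown in DMEM with 10% serum, and polyadenylated RNA was sequenced. The labels give the genotype only as WT FNIP1. They do not say whether the cells are 1 clone, which promoter drives FNIP1, or whether the 3 libraries of a group came from separate cultures, so p-values here measure the spread between libraries, which may be technical. Vehicle was sampled at 0 h only, so time in culture and time with 991 cannot be told apart. The companion cells of the same table carry FNIP1 SA5, named for 5 serines, known as AMPK sites, that are changed to alanine.

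AMPK is the kinase that senses a fall in cellular energy. FNIP1 and folliculin (FLCN) form a complex on the lysosome that acts on the Rag GTPases RagC and RagD, and through them keeps the transcription factors TFEB, TFE3 and MITF phosphorylated and in the cytoplasm. When the complex is blocked, these factors enter the nucleus and switch on genes of lysosomes and autophagy. TFEB-family factors bind a DNA word around the core CACGTG that is common in promoters of lysosomal genes, and ATF4, the factor of the integrated stress response, binds a composite word shared with CEBP proteins.

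Promoter sequence of some genes with results below is shown first. Each line gives up to 30 bases of the RefSeq promoter (GRCh38.p14), read 5′ to 3′ on the gene's strand, and the capitals mark GTCACGTG or its reverse complement, or both where they overlap. GAA and SUMF1 stand for the lysosomal enzymes, SLC36A1 and MCOLN1 for the lysosomal membrane. LAMP1 and ATG14 are shown because they hold the same word and did not rise.
GAA: ctcccgccgGTCACGTGACccgcctctgcg
SUMF1: gagggctcagcCACGTGACcaacc
SLC36A1: gctcaagggagCACGTGACctcggcctctg
MCOLN1: ggctaccggGTCACGTGACcgaggc
LAMP1: acccgcgggatCACGTGACgcccgggcgcg
ATG14: aaacaaaatccCACGTGACtggctctcctc
These windows lie at chr17:80101539-80101568 on the plus strand (GAA), chr3:4467270-4467293 on the minus strand (SUMF1), chr5:151447549-151447578 on the plus strand (SLC36A1), chr19:7522599-7522623 on the plus strand (MCOLN1), chr13:113297200-113297229 on the plus strand (LAMP1) and chr14:55411833-55411862 on the minus strand (ATG14). In the integrated stress response, ASNS (chr7:97872458-97872487, minus strand) and CHAC1 (chr15:40953251-40953280, plus strand) hold TGATGNAA or its reverse complement, in capitals. Starts are those of the RefSeq entries and can differ from the start of the transcript in the deposited table: the windows of GAA, LAMP1 and CHAC1 lie wholly inside that transcript, and those of SUMF1, MCOLN1 and ATG14 overlap its first bases.
ASNS: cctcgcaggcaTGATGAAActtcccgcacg
CHAC1: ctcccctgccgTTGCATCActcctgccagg

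FNIP1 RNA stood between 221 and 271 TPM (a level scaled by transcript length and by the library's total) in all 15 libraries, and FLCN RNA between 831 and 1083 TPM. FNIP1 was called higher by 0.14, 0.14 and 0.12 on the log2(TPM + 1) scale at 2, 4 and 8 h, each call lost after median-ratio scaling or without DMSO replicate 3. In the AMPK table, whose TPM were scaled separately, the DMSO libraries of AMPK WT cells had 2.65 to 2.98 TPM of FNIP1 and 5.54 to 6.08 TPM of FLCN. Those of TFEB/TFE3 WT cells, in a table of their own, had 4.03 to 4.10 TPM of FNIP1 and 7.09 to 7.43 TPM of FLCN. High levels of both were not limited to the FNIP1 table: ESRRA WT cells had 200.2 to 217 TPM of FNIP1 and 979 to 1032 TPM of FLCN in DMSO, and siControl cells 135 to 143 and 932 to 1026 TPM. Introduced and endogenous transcripts cannot be told apart in these tables, and the labels name no introduced FLCN. FNIP2, the paralog of FNIP1, had 4.11 to 4.81 TPM in DMSO and was called lower at 2 h (log2 change -0.17) and higher at 4 h (0.21). The 2 h call was lost without DMSO replicate 1 or 3, and the 4 h value was -0.01 after quantile normalization. Of 10 HEK 293 markers, 8 passed the filter, and their summed level was 443 to 462 TPM in DMSO and 575 to 608 TPM at 16 h, most of it VIM. Its part in the results was not tested. Of markers of mature kidney, blood, endothelium, fibroblasts and keratinised cells, 1 of 10, 1 of 11, 0 of 6, 2 of 7 and 1 of 6 passed, with UMOD, HBB, CLDN5 and KRT5 listed at 0 in all libraries; over these lists the summed levels ranged from 0.681 to 1.84, 1.25 to 2.15, 0.069 to 0.281, 6.06 to 7.89 and 8.93 to 12.1 TPM. Correlations of log2 levels were 0.9919 to 0.9949 within groups, and no 2 libraries were identical.

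Changes were found from 2 h on, and more genes were called at 4, 8 and 16 h than at 2 h. Of 13062 genes tested, limma with Benjamini-Hochberg adjustment called 2381 higher (18.2%) and 1845 lower (14.1%) at 2 h, 4887 higher (37.4%) and 2100 lower (16.1%) at 4 h, 4763 higher (36.5%) and 2328 lower (17.8%) at 8 h, and 4456 higher (34.1%) and 2569 lower (19.7%) at 16 h. In either direction these were 32.4%, 53.5%, 54.3% and 53.8% of the genes tested. The counts rest on the processing: at 4 h quantile normalization called 6060 of the same genes, and leaving out 1 library gave as few as 6182. Most changes were small. Changes are on the log2(TPM + 1) scale, which understates those of genes with few TPM. At least 1.5-fold, 204 genes rose (1.56%) and 97 fell (0.743%) at 2 h, 889 rose (6.81%) and 134 fell (1.03%) at 4 h, 772 rose (5.91%) and 147 fell (1.13%) at 8 h, and 557 rose (4.26%) and 222 fell (1.7%) at 16 h. Between 4 h and 16 h of 991, 1637 genes rose (12.5%) and 2478 fell (19%), of them 53 (0.406%) and 372 (2.85%) by at least 1.5-fold, and over all times 9405 genes changed (72%).

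The balance of rises and falls rested on the scaling. The median change of all tested genes was 0.04, 0.10, 0.09 and 0.07 on the log2 scale at 2, 4, 8 and 16 h as deposited, and between -0.017 and 0.0042 after median-ratio scaling. That scaling gave 1753 rises and 2523 falls at 2 h, 3099 and 3762 at 4 h, 3198 and 3822 at 8 h, and 3241 and 3677 at 16 h. Quantile normalization gave 1887 and 1947, 3049 and 3011, 3249 and 3155, and 3417 and 3217. Between 4 and 16 h the split turned, to 2398 rises and 1945 falls with median-ratio scaling and 2132 and 1917 with quantile normalization. For this reason counts for lists of genes are given below as deposited and with median-ratio scaling. A list's median, as deposited, is to be read against the median of all genes at that time. Its counts are to be read against the share of all genes called at that time under the same scaling. Median-ratio scaling lowered the median of all genes at each time, so it cannot show whether a list's falls rest on the scaling. Counts with quantile normalization are given for some lists only. A fit of all 30 libraries of the table, which adds the SA5 cells and shares 1 estimate of the spread, called fewer genes: 682, 2430, 2380 and 2196 at the 4 times. Where it ended a call described below, this is said at the end of the paragraph. That fit holds the 2 SA5 libraries, described below, that stand apart from their group. In SA5 DMSO replicate 1, for example, HMMR had 1.41 TPM, against 23.5 and 20.3 TPM in replicates 2 and 3. The WT FNIP1 changes were not fitted with these 2 libraries alone left out, so their part in the lost calls was not tested.

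**Figure D1:**
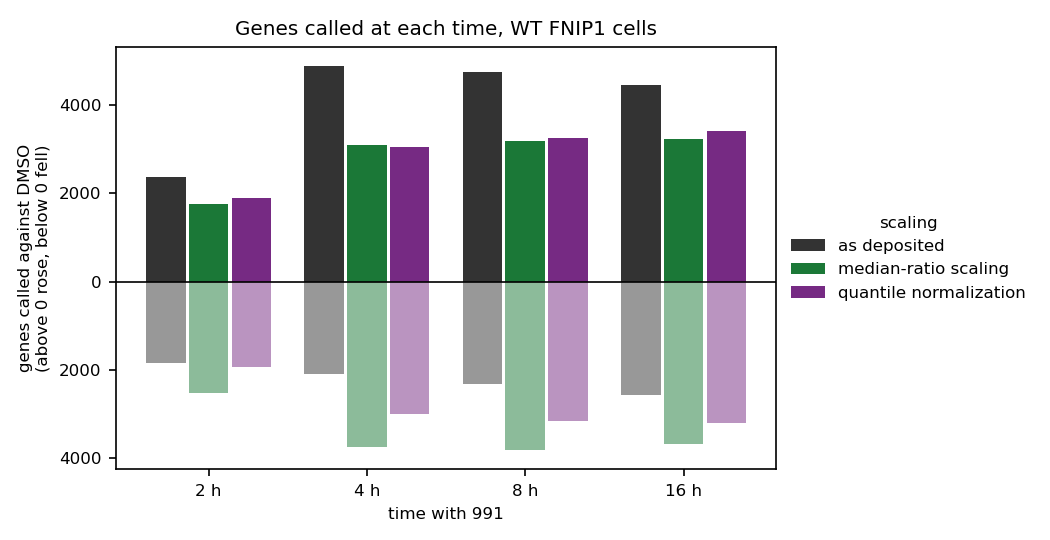
Genes called at each time with 991 against DMSO in WT FNIP1 cells (bars above 0, rises; below 0, falls; adjusted p under 0.05), as deposited and under the 2 other scalings. As deposited, 4887 genes rose and 2100 fell at 4 h; with median-ratio scaling 3099 rose and 3762 fell.

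RRAGD encodes RagD, the GTPase that the FLCN complex acts on and that is itself a known TFEB-family target (GRCh38 chr6:89364616-89412276, minus strand, in the table's transcript). Its levels were 4.31, 4.49 and 5.10 TPM in DMSO, 5.28, 5.39 and 6.57 TPM at 2 h, 8.08, 8.02 and 8.28 TPM at 4 h, 8.52, 8.18 and 7.87 TPM at 8 h, and 6.99, 8.53 and 8.18 TPM at 16 h. Every library with 991 lay above every DMSO library, and the 9 libraries from 4 h on lay together, with a log2 difference of -0.04 between 16 h and 4 h (SE 0.08). RRAGD rose by 0.70 on the log2(TPM + 1) scale at 4 h (SE 0.08, adjusted p = 7.29e-06, limma with Benjamini-Hochberg adjustment, as for all adjusted p below) and by 0.66 at 16 h (SE 0.08, adjusted p = 1.18e-05). The 2 h rise of 0.26 (adjusted p = 0.0244) was lost when DMSO replicate 1, DMSO replicate 2 or 2 h replicate 3 was left out, after quantile normalization and in the fit of all 30 libraries.

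Of the 3 tested factors of the family, 2 also rose. TFEB (chr6:41683978-41736259, minus strand) had 1.66, 1.52 and 1.78 TPM in DMSO, 1.49, 1.86 and 1.56 TPM at 2 h, 3.00, 2.45 and 2.41 TPM at 4 h, 3.14, 2.51 and 3.48 TPM at 8 h, and 3.37, 2.16 and 2.86 TPM at 16 h. It was at its DMSO level at 2 h and above all DMSO libraries from 4 h, with changes of 0.45 (SE 0.12, adjusted p = 0.00566), 0.60 (SE 0.12) and 0.51 (SE 0.12) at 4, 8 and 16 h. MITF followed the same course, from a mean of 2.09 ± 0.30 TPM (SD, n = 3) in DMSO to 3.17 ± 0.20 TPM at 4 h, a change of 0.44 (SE 0.08). TFE3 was called at no time against DMSO, with 11 to 12.2 TPM in DMSO and 10.1 to 13.6 TPM with 991. SLC38A9, a lysosomal arginine sensor that binds the Rag GTPases, rose from 7.14 to 8.11 TPM in DMSO to 10.0 to 10.8 TPM at 4 h and 11.9 to 12.5 TPM at 8 h (changes of 0.43 and 0.63). RRAGC fell at 2 h (-0.33) and was not called later. Of all 13 tested members of the FLCN complex and Rag list, 5 rose and 1 fell at 4 h. The rises were 38.5% of the list, close to the 37.4% of all genes, and the median was 0.09 against 0.10. With median-ratio scaling 2 rose and 3 fell. The TFEB call at 4 h was lost after quantile normalization. In the fit of all 30 libraries TFEB at 4 h, MITF and SLC38A9 at all 3 times and RRAGC at 2 h were not called.

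From 4 h on, as deposited, lysosomal enzymes rose in a larger share than all genes, though not by much each. Of 53 hydrolases and cofactors in the list, 44 passed the filter; the other 9, among them NEU1, CTSK and GALC, were too low to test. Of the 44, 5 rose and 1 fell at 2 h, 24 rose and 0 fell at 4 h, 27 rose and 2 fell at 8 h, and 29 rose and 3 fell at 16 h, with medians of 0.08, 0.18, 0.24 and 0.25. The rises were 11.4%, 54.5%, 61.4% and 65.9% of the list, where 18.2%, 37.4%, 36.5% and 34.1% of all genes rose. With median-ratio scaling the counts were 3 and 4, 13 and 4, 22 and 7, and 24 and 5. Under that scaling 1753, 3099, 3198 and 3241 of all 13062 genes rose. SIAE, a sialic acid esterase, SUMF1, which activates sulfatases, TPP1, a peptidase, and GAA, the acid glucosidase that degrades glycogen, had the highest 4 h changes of the list, at 0.71, 0.53, 0.46 and 0.46. SIAE overlaps TBRG1, and counting by strand is not stated, so their reads may not be separable.

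GAA had 13.4, 12.4 and 12.7 TPM in DMSO, 13.9, 14.8 and 11.8 TPM at 2 h, 18.2, 18.5 and 17.4 TPM at 4 h, 18.1, 17.1 and 17.3 TPM at 8 h, and 21.5, 16.1 and 19.9 TPM at 16 h. It overlapped DMSO at 2 h and lay above it in all 9 later libraries (4 h, SE 0.09, adjusted p = 0.000551). HGSNAT, a heparan sulfate enzyme, was late: 6.34, 5.99 and 6.09 TPM in DMSO stood against 6.98, 6.95 and 6.24 TPM at 4 h and 11.7, 11.5 and 10.4 TPM at 8 h. Its change of 0.11 at 4 h did not pass, and 0.77 at 8 h (SE 0.06, adjusted p = 1.68e-07) and 0.70 at 16 h did. NAGLU, which acts on the same substrate, was early: 13.7, 12.9 and 13.6 TPM in DMSO, 19.5, 17.4 and 19.3 TPM at 4 h and 11.5, 11.8 and 10.6 TPM at 16 h, a rise of 0.45 and then a fall of 0.23 on the log2 scale. TPP1 rose at each time, from 18.1 ± 0.91 TPM (SD, n = 3) in DMSO to 29 ± 1.05 TPM at 16 h, a change of 0.66. The members called lower at 16 h were NAGLU, the peptidase CTSC (-0.25) and the glucuronidase GUSB (-0.10), and both of the last were lost without DMSO replicate 1. In the fit of all 30 libraries the 16 h calls of HGSNAT, NAGLU, CTSC and GUSB and those of TPP1 before 16 h were lost.

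Of 36 tested membrane proteins of the lysosome, 3 rose and 1 fell at 2 h, 18 rose and 0 fell at 4 h, 21 rose and 1 fell at 8 h, and 20 rose and 2 fell at 16 h, with medians of 0.02, 0.19, 0.18 and 0.18. The rises were 8.33%, 50%, 58.3% and 55.6% of the list, where 18.2%, 37.4%, 36.5% and 34.1% of all genes rose. With median-ratio scaling the counts of rises and falls were 2 and 4, 15 and 6, 11 and 5, and 15 and 5. SLC29A3, a nucleoside exporter, rose most at 4 h, from 3.05, 2.91 and 2.74 TPM in DMSO to 5.49, 5.86 and 5.95 TPM (0.79, SE 0.10), and was back to 3.31, 4.67 and 4.07 TPM at 16 h. SLC36A1, a lysosomal amino acid transporter, had 4.73, 4.63 and 3.79 TPM in DMSO and 5.49, 5.70 and 6.48 TPM at 4 h, without overlap (0.36, SE 0.09, adjusted p = 0.00326). That was its only call, and it was lost after quantile normalization (0.15, adjusted p = 0.192) and in the fit of all 30 libraries (adjusted p = 0.365). MCOLN1, the lysosomal calcium channel, rose by 0.29 at 4 h (SE 0.06) and was not called at 8 h, where its change was -0.01. LAMP1, a main structural protein of the lysosomal membrane, did not rise: it had 40.03 to 44.5 TPM in DMSO, 38.7 to 40.2 TPM at 4 h and 36 to 37.4 TPM at 8 h, where it fell by 0.18. CD68, a heavily glycosylated lysosomal protein, was flat to 4 h and then rose, with 3.66, 3.49 and 3.31 TPM in DMSO, 6.80, 4.44 and 6.51 TPM at 8 h and 10.3, 8.45 and 9.71 TPM at 16 h, a change of 1.22 at 16 h (SE 0.12, adjusted p = 1.18e-06). For the V-ATPase, the proton pump of the lysosome, the direction rested on the scaling. Of 18 tested subunits 4 rose and 1 fell at 4 h (median 0.01) and 5 rose and 2 fell at 16 h. With median-ratio scaling 2 rose and 11 fell at 4 h (median -0.12), where 3762 of all 13062 genes fell, and 3 rose and 8 fell at 16 h, and with quantile normalization 6 rose and 1 fell at 4 h and 8 rose and 3 fell at 16 h.

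The word GTCACGTG was searched on both strands in the 250 bases before the start of each RefSeq entry. A gene was counted when any of its entries held the word. It was held by 2.66% of the 27305 genes with an entry (726) and by 4.96% of the tested genes with an entry (474 of 9557). Holding it were 9 of the 30 lysosomal hydrolase genes with an entry (30%) and 5 of 28 of the membrane list (17.9%). So did 3 of 12 of the V-ATPase and 2 of 38 of the autophagy list. RRAGD has no entry. At 4 h the median change was 0.25 for hydrolases with the word and 0.16 for those without, and 0.29 and 0.20 for membrane proteins. At 16 h the order was the opposite, with 0.19 and 0.22 for hydrolases and 0.16 and 0.23 for membrane proteins. In the autophagy list the values were -0.20 with and 0.20 without at 4 h, and over all tested genes 0.05 with and 0.10 without. The word was thus more frequent in the lysosomal lists than over all genes with an entry, and its presence did not go with a larger change throughout. A match is a description of these letters and not of binding.

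Autophagy genes divided by member. WIPI1, which binds phosphatidylinositol 3-phosphate on the forming autophagosome (chr17:68421281-68457524, minus strand), had 6.88, 7.04 and 7.07 TPM in DMSO, 7.67, 8.06 and 8.18 TPM at 2 h, 11.4, 11.3 and 13.3 TPM at 4 h, 12, 11.9 and 11.3 TPM at 8 h, and 11.5, 11.1 and 11.5 TPM at 16 h. All libraries with 991 lay above DMSO, and the 4 h change was 0.70 (SE 0.06, adjusted p = 2.72e-07); that at 2 h, 0.17 (adjusted p = 0.0353), was lost when any 1 of the 3 DMSO libraries was left out. ATG10, an E2-like enzyme of the ATG12 conjugation system, rose from 2.30, 1.95 and 2.39 TPM in DMSO to 5.66, 6.13 and 6.75 TPM at 8 h (1.16, SE 0.08). STX17, the SNARE that fuses autophagosomes with lysosomes, rose by 0.64 at 4 h and 0.62 at 16 h. Others fell from 2 h on. ATG14, the targeting subunit of the lipid kinase complex, had 6.31, 6.11 and 6.06 TPM in DMSO, 3.80, 4.44 and 4.91 TPM at 2 h and 3.24, 4.03 and 3.48 TPM at 16 h, without overlap (-0.42, SE 0.08, and -0.65, SE 0.08). MAP1LC3B, which encodes the autophagosome protein LC3B, fell by 0.26 to 0.30 on the log2 scale at the 4 times. Of 44 tested members, 6 rose and 8 fell at 2 h, 21 and 11 at 4 h, 22 and 7 at 8 h, and 24 and 6 at 16 h, with medians of 0.04, 0.15, 0.13 and 0.16, and with median-ratio scaling 4 and 11, 12 and 14, 13 and 10, and 20 and 9. Rises as deposited made up 13.6%, 47.7%, 50% and 54.5% of the list, against 18.2%, 37.4%, 36.5% and 34.1% of all genes. STX17 was called at no time and ATG14 at 16 h only in the fit of all 30 libraries.

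**Figure D2:**
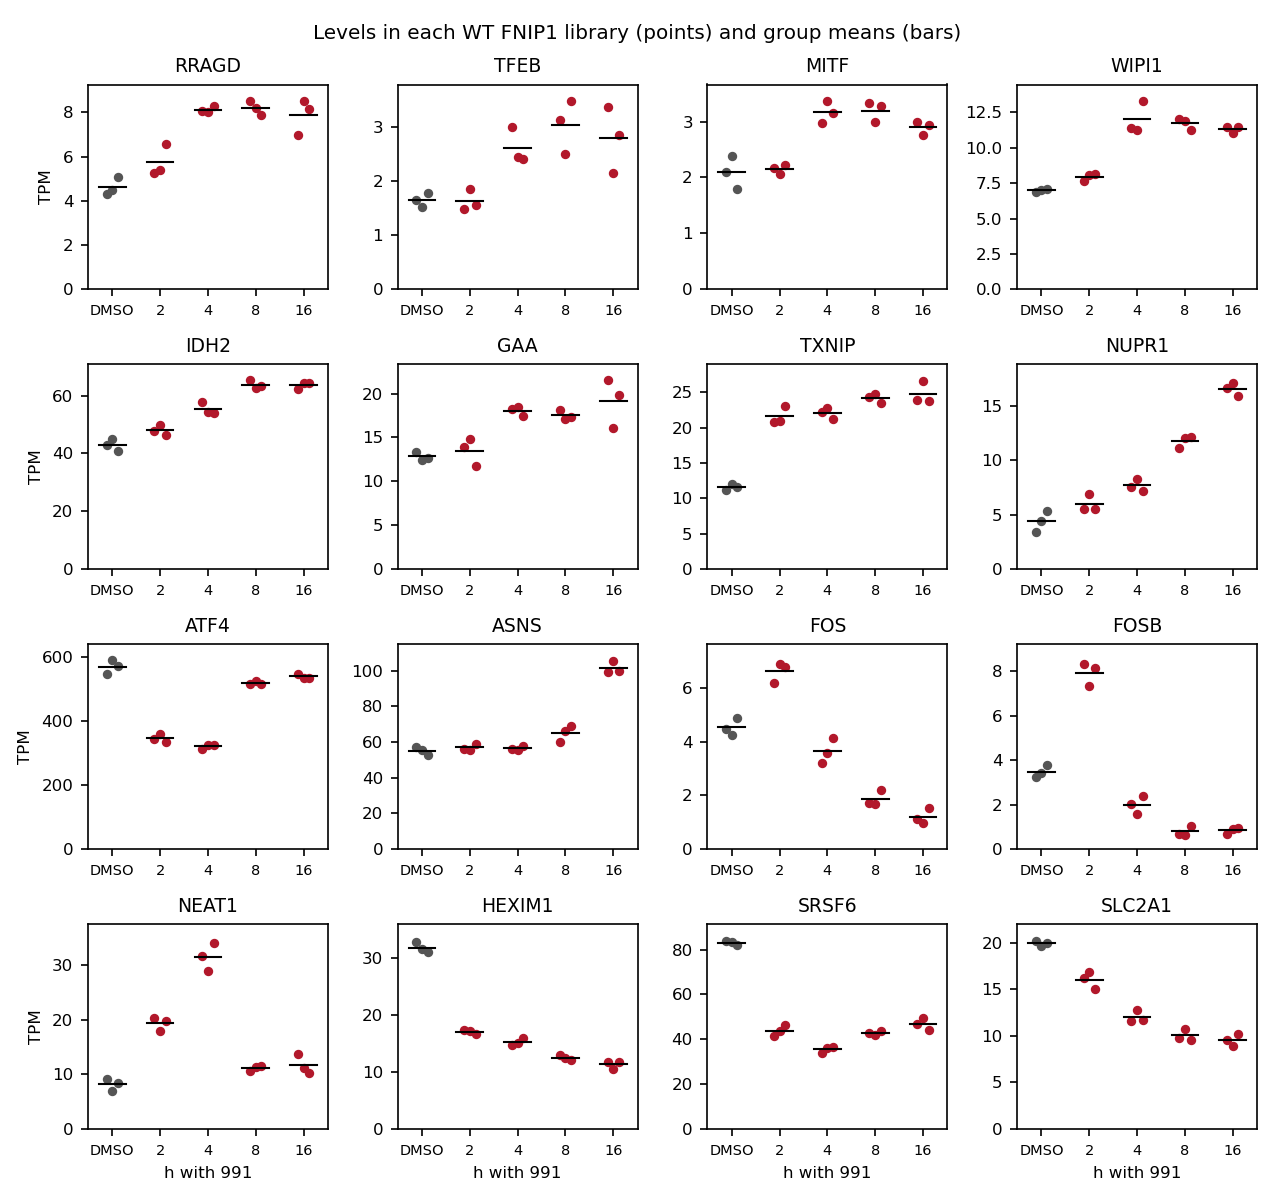
TPM of 16 genes in each of the 15 WT FNIP1 libraries (points; bars, means of 3; axes start at 0). RRAGD and WIPI1 reached their level by 4 h, FOS and FOSB peaked at 2 h, NEAT1 peaked at 4 h, and NUPR1 and ASNS were highest at 16 h.

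Among genes of mitochondrial metabolism, single members moved more than the groups. Of 21 tested genes of fatty acid oxidation, 4 rose and 1 fell at 2 h, 9 and 2 at 4 h, 13 and 3 at 8 h, and 12 and 3 at 16 h. Their medians were 0.10, 0.11, 0.20 and 0.21. Rises made up 19%, 42.9%, 61.9% and 57.1% of the list, against 18.2%, 37.4%, 36.5% and 34.1% of all genes. With median-ratio scaling the counts of rises and falls were 4 and 2, 5 and 4, 8 and 4, and 8 and 5. CPT1C, a carnitine palmitoyltransferase of the endoplasmic reticulum, rose from 2.15, 2.33 and 2.43 TPM to 5.10, 4.72 and 4.19 TPM at 16 h (0.78, SE 0.09), and ACADS, the short-chain acyl-CoA dehydrogenase, rose by 0.64 at 4 h. ECHS1, ETFA and HADHB, also of this pathway, were lower at 16 h, with -0.29 for ECHS1 and -0.16 for ETFA, the latter lost after quantile normalization. IDH2, the mitochondrial NADP isocitrate dehydrogenase, rose to 63.6 ± 1.25 TPM at 16 h from 43 ± 2.00 TPM (SD, n = 3; 0.56). In the TCA list of 25, 8 rose and 2 fell at 4 h (median -0.02) and 6 rose and 11 fell at 16 h (median -0.11), and with median-ratio scaling 3 and 13, and 5 and 14. With all 30 libraries in the fit, CPT1C at 4 h, ACADS and ECHS1 at 16 h and ETFA were not called.

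Nuclear genes of the respiratory chain turned direction with the scaling. Those of the mitochondrial ribosome fell more often than they rose as deposited and with median-ratio scaling. For the mitochondrial ribosome, counts with quantile normalization are not given. Of 76 tested respiratory chain genes, 12 rose and 4 fell at 2 h, 9 and 11 at 4 h, 8 and 18 at 8 h, and 15 and 18 at 16 h, with a median of 0.01 at 4 and at 16 h. With other scalings, 0 rose and 42 fell at 4 h and 8 rose and 30 fell at 16 h with median-ratio scaling, and 21 rose and 5 fell at 4 h and 28 rose and 8 fell at 16 h with quantile normalization. Of 76 mitochondrial ribosomal proteins, 8 rose and 31 fell at 4 h (median -0.07; 2 and 48 with median-ratio scaling) and 10 rose and 25 fell at 16 h (median -0.03; 5 and 35 with median-ratio scaling). CYCS, the electron carrier cytochrome c, fell at each time, from 37.8, 40.8 and 41.9 TPM in DMSO to 25.5, 27.4 and 26.9 TPM at 16 h (-0.58, SE 0.07). TFAM, which packages and transcribes mitochondrial DNA, fell from 17.6 ± 0.45 TPM in DMSO to 12.4 ± 0.88 TPM at 16 h (SD, n = 3; -0.48). In the fit of all 30 libraries of the table, CYCS was called at 16 h only and TFAM at no time.

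Regulators of mitochondrial genes went different ways. PPRC1, a coactivator of the PGC-1 family, had 35.5, 36.1 and 33.9 TPM in DMSO and 19.3, 20.9 and 18.8 TPM at 2 h, and it stayed between 19.6 and 22.7 TPM at the later times (2 h change -0.81, SE 0.04, adjusted p = 2.08e-08; 16 h -0.78). ESRRA, the nuclear receptor that works with PGC-1 coactivators, had 7.56, 7.39 and 7.69 TPM in DMSO and 10.6, 11.6 and 9.54 TPM at 2 h, and then 10.4 to 11.6 TPM. It lay above DMSO in all 12 libraries, with changes of 0.44 to 0.50, but its transcript overlaps TRMT112, with which reads may be shared. PPARGC1A, which encodes PGC-1alpha, was too low to test, at 0.34 to 0.43 TPM in DMSO and 0.21 to 0.58 TPM with 991. PPARGC1B was called at no time.

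Rises in the integrated stress response were most numerous at 16 h, and ATF4 RNA itself fell first. ATF4 had 548, 590 and 574 TPM in DMSO, 344, 361 and 336 TPM at 2 h, 314, 327 and 327 TPM at 4 h, 515, 525 and 517 TPM at 8 h, and 549, 535 and 537 TPM at 16 h. The 2 and 4 h libraries stood far below DMSO (-0.72, SE 0.03, adjusted p = 4.05e-09; -0.82, SE 0.03, adjusted p = 3.68e-10), and by 8 h most of the fall was gone. At 16 h the change of -0.08 (adjusted p = 0.0462) was lost without DMSO replicate 2 or 3 or any 16 h library and was 0.01 after quantile normalization, and 16 h lay 0.74 above 4 h. ASNS, asparagine synthetase (chr7:97852117-97872165, minus strand), had 57.4, 55.7 and 52.7 TPM in DMSO, 56.3, 55.4 and 57.8 TPM at 4 h, 60.2, 66.4 and 68.7 TPM at 8 h, and 99.3, 106 and 99.7 TPM at 16 h. It was flat to 4 h and 0.87 higher at 16 h (SE 0.05, adjusted p = 1.2e-08). SLC7A11, the cystine importer, stood 0.74 higher at 16 h than at 4 h, with 2.64, 3.21 and 2.48 TPM against 1.09, 1.39 and 1.29 TPM.

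NUPR1, a small stress-induced chromatin protein (chr16:28537341-28539174, minus strand), climbed throughout: 3.43, 4.45 and 5.33 TPM in DMSO, 5.50, 6.91 and 5.50 TPM at 2 h, 7.54, 8.32 and 7.17 TPM at 4 h, 11.1, 12 and 12.1 TPM at 8 h, and 16.6, 17 and 15.9 TPM at 16 h. Its changes were 0.38, 0.70, 1.25 and 1.71 (SE 0.11; 16 h adjusted p = 3e-08), and the smallest, at 2 h, was lost without DMSO replicate 1 or 2 h replicate 2. GDF15, a stress-secreted cytokine, rose from 0.98, 0.82 and 0.85 TPM in DMSO to 4.10, 3.48 and 3.79 TPM at 4 h and 3.85, 4.72 and 3.66 TPM at 16 h (1.35 and 1.43). PCK2, the mitochondrial PEP carboxykinase, rose at each time, from 11.3, 10.7 and 10.3 TPM in DMSO to 25.5, 21.9 and 24.1 TPM at 16 h (1.08, SE 0.05). CHAC1, which degrades glutathione (chr15:40953149-40956519, plus strand), fell and then rose, with 4.56, 3.66 and 4.15 TPM in DMSO, 2.44, 2.63 and 2.60 TPM at 2 h and 6.64, 7.37 and 7.55 TPM at 16 h (-0.52 and 0.68). ATF5, a related factor whose transcript overlaps NUP62, stayed down at all times (-0.84 to -0.94), and SLC7A5, the leucine importer, was lower at all times (-0.40 at 4 h and -0.19 at 16 h). In the fit of all 30 libraries ATF4 at 8 h and SLC7A5 at 2, 4 and 16 h were not called.

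Of 47 tested genes of the integrated stress response, 11 rose and 12 fell at 2 h, 8 and 16 at 4 h, 20 and 10 at 8 h, and 27 and 8 at 16 h, with medians of 0.03, 0.01, 0.03 and 0.19. With median-ratio scaling these counts were 9 and 15, 6 and 26, 15 and 19, and 21 and 12. Between 4 h and 16 h, 31 rose and 3 fell (median 0.24 against -0.02 for all genes; 35 and 2 with median-ratio scaling). The word TGATGNAA was held by 7 of the 32 genes of this list with a promoter entry (21.9%). It was held by 2.18% of the tested genes with an entry and by 3.89% of all genes with one. At 16 h the median change was -0.09 for list members with the word and 0.17 for those without, so the rise of the list was not limited to members with the word in this window.

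Ribosome biogenesis fell from 2 h on and stayed down under each of the 3 scalings. Of 40 tested factors, 1 rose and 28 fell at 2 h, 1 and 32 at 4 h, 1 and 34 at 8 h, and 1 and 33 at 16 h, with medians of -0.26, -0.38, -0.41 and -0.49. With median-ratio scaling 29, 36, 38 and 35 fell, and with quantile normalization 27, 31, 34 and 33. RRS1, a factor of large subunit assembly, had 34.7, 38.2 and 34.8 TPM in DMSO, 20.1, 19.9 and 20.8 TPM at 2 h and 20.5, 20.5 and 21.6 TPM at 16 h, with no overlap (-0.79 and -0.75, SE 0.04). WDR43, of the small subunit processome, was lowest at 4 h (27.4, 26.6 and 27.8 TPM against 53.1, 54.5 and 50.7 TPM in DMSO; -0.93, SE 0.05). BOP1 was the member that rose at 2 h (0.22), and it was lower at 8 and 16 h (-0.27 and -0.17). WDR12 was the member that rose at 8 and 16 h (0.21 and 0.19), and both calls were lost with median-ratio scaling. With all 30 libraries in the fit, BOP1 and WDR12 were called at no time and WDR43 at 4 h only.

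As deposited, more genes of DNA replication fell than rose at each time, while the list of mitosis varied with time and scaling. Of 25 replication genes, 12, 13, 14 and 18 fell and 1, 2, 1 and 1 rose at the 4 times, with medians of -0.13, -0.11, -0.22 and -0.27 (15, 22, 20 and 18 fell with median-ratio scaling). CDC6, which loads the replicative helicase, had 72.2, 72.7 and 74.4 TPM in DMSO and 48.5, 51.1 and 51.8 TPM at 2 h, and stayed between 49.2 and 56.9 TPM later (-0.53 at 2 h and -0.55 at 16 h). Of 26 mitotic genes, 7 rose and 6 fell at 2 h, 15 and 4 at 4 h, 19 and 1 at 8 h, and 16 and 2 at 16 h, with medians of 0.01, 0.11, 0.24 and 0.12, of which the first lies below that of all genes and the second close to it. Rises made up 26.9%, 57.7%, 73.1% and 61.5% of the mitotic list, against 18.2%, 37.4%, 36.5% and 34.1% of all genes. With median-ratio scaling the counts of rises and falls were 5 and 9, 7 and 9, 14 and 3, and 10 and 6. More thus fell than rose at 2 and 4 h under that scaling. HMMR, a spindle protein, rose from 22.5, 23.2 and 23.1 TPM in DMSO to 42.9, 42.4 and 45.4 TPM at 8 h (0.90, SE 0.05). RNA was taken from whole cultures, so a change in the share of cells in a phase and a change in RNA per cell cannot be told apart. HMMR was called at no time and CDC6 at 16 h only in the fit of all 30 libraries.

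From 4 h on, more glucose genes fell than rose as deposited and with median-ratio scaling, and TXNIP rose at each time. SLC2A1, the main glucose transporter GLUT1, had 20.2, 19.6 and 19.9 TPM in DMSO, 16.2, 16.8 and 15 TPM at 2 h, 11.6, 12.7 and 11.7 TPM at 4 h, 9.81, 10.8 and 9.60 TPM at 8 h, and 9.50, 8.93 and 10.2 TPM at 16 h. TXNIP, an arrestin that removes glucose transporters from the cell surface (chr1:145992426-145996631, minus strand), had 11.2, 12 and 11.6 TPM in DMSO, 20.8, 21 and 23.1 TPM at 2 h, 22.1, 22.7 and 21.2 TPM at 4 h, 24.3, 24.8 and 23.5 TPM at 8 h, and 23.9, 26.5 and 23.7 TPM at 16 h. Neither gene's treated libraries overlapped DMSO at any time, with 16 h changes of -0.99 (SE 0.06, adjusted p = 2.06e-08) for SLC2A1 and 1.03 (SE 0.05, adjusted p = 7.03e-09) for TXNIP. ARRDC4, a related arrestin, rose by 0.74 at 2 h and 0.72 at 16 h, and ARRDC3 by 0.71 at 2 h and by 0.19, not called, at 16 h. Of 21 genes of glycolysis and glucose transport, 4 rose and 5 fell at 2 h, 4 and 9 at 4 h, 4 and 12 at 8 h, and 6 and 13 at 16 h, with medians of -0.01, -0.09, -0.21 and -0.30, and with median-ratio scaling 3 and 5, 3 and 15, 3 and 13, and 3 and 13. HK2, the inducible hexokinase, and LDHA, lactate dehydrogenase A, fell by 0.59 and 0.49 on the log2 scale at 16 h. SLC2A3, another glucose transporter, and ENO2, an enolase, rose by 0.44 and 0.86. With all 30 libraries in the fit, HK2 and ARRDC4 were called at no time, and SLC2A1 and ARRDC3 at 2 h were not called.

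Immediate early genes, which respond to growth factors and stress within minutes, rose at 2 h and then fell below DMSO. FOSB had 3.23, 3.44 and 3.79 TPM in DMSO, 8.31, 7.35 and 8.17 TPM at 2 h, 2.01, 1.60 and 2.39 TPM at 4 h, 0.69, 0.65 and 1.05 TPM at 8 h, and 0.68, 0.92 and 0.96 TPM at 16 h. FOS had 4.46, 4.25 and 4.86 TPM in DMSO, 6.17, 6.89 and 6.77 TPM at 2 h, and 1.13, 0.96 and 1.55 TPM at 16 h. Both stood above all DMSO libraries at 2 h and below all of them at 16 h (FOSB 1.00 and -1.27, SE 0.11; FOS 0.46 and -1.33, SE 0.10). JUN did not turn: it had 75.4, 73.4 and 74.6 TPM in DMSO, 154, 143 and 132 TPM at 2 h and 108, 115 and 116 TPM at 16 h (0.93 and 0.59). Of 20 tested genes, 16 rose and 0 fell at 2 h, 7 and 5 at 4 h, 3 and 13 at 8 h, and 3 and 14 at 16 h, with medians of 0.42, -0.02, -0.39 and -0.51, and with median-ratio scaling 16 and 0, 4 and 9, 3 and 15, and 2 and 16. IER3 is listed at 0. FOS at 2 h and JUN at 16 h were not called in the fit of all 30 libraries.

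Several targets of growth factor, BMP and YAP signalling were also lower at 16 h. ETV5, an ETS factor induced by ERK signalling, had 4.08, 3.84 and 4.04 TPM in DMSO, 4.83, 4.99 and 4.88 TPM at 4 h, and 0.98, 1.10 and 0.88 TPM at 16 h (-1.33, SE 0.08), and DUSP5, an ERK phosphatase, fell from 5.77 ± 0.60 TPM in DMSO to 2.10 ± 0.30 TPM at 16 h (SD, n = 3). In the ID and BMP list of 11, 7 rose and 0 fell at 2 h (median 0.25) and 0 rose and 7 fell at 16 h (median -0.33), and with median-ratio scaling 6 and 0, and 0 and 7. ID1, an inhibitor of basic helix-loop-helix factors, had 24.3, 28 and 27.8 TPM in DMSO, 19.7, 15.9 and 16.7 TPM at 4 h and 14.4, 13.4 and 16.4 TPM at 16 h (-0.82, SE 0.08). Of 12 YAP/TEAD targets, 6 rose and 0 fell at 2 h (median 0.21) and 4 rose and 4 fell at 16 h (median -0.03). Rises were 50% and 33.3% of that list, against 18.2% and 34.1% of all genes. With median-ratio scaling the counts were 4 and 0, and 3 and 5. CYR61 and CTGF, matricellular proteins, fell by 0.68 and 0.89 on the log2 scale at 16 h, and ANKRD1, a transcriptional cofactor of muscle, rose by 1.03, from 0.57, 0.67 and 0.74 TPM to 2.14, 2.73 and 2.31 TPM.

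The falls named by their size included several genes that act on RNA; no list of such genes was counted or tested, so nothing is said of them as a group. SRSF6, a splicing regulator, had 83.6, 83.2 and 82 TPM in DMSO, 41.6, 43.7 and 46.2 TPM at 2 h, 33.7, 36.2 and 36.6 TPM at 4 h, 42.8, 41.9 and 43.9 TPM at 8 h, and 46.8, 49.5 and 44.1 TPM at 16 h. HEXIM1, which holds the elongation factor P-TEFb inactive (chr17:45147317-45152101, plus strand), had 32.9, 31.6 and 31.2 TPM in DMSO, 17.4, 17.2 and 16.6 TPM at 2 h, 14.8, 15.2 and 16.1 TPM at 4 h, 13, 12.4 and 12.2 TPM at 8 h, and 11.8, 10.6 and 11.7 TPM at 16 h. SRSF6 was lowest at 4 h and partly recovered (-1.20, SE 0.05, then -0.81), whereas HEXIM1 went on falling (-0.86 at 2 h, -1.41 at 16 h, SE 0.05, adjusted p = 1.73e-10). DDX5, an RNA helicase, fell from 257, 267 and 269 TPM to 118, 114 and 116 TPM at 4 h and was back to 235, 237 and 239 TPM at 8 h. RBM25 and SRSF5, splicing factors, fell by 0.96 and 0.77 on the log2 scale at 4 h. P2RY11, a purinergic receptor gene that overlaps the PPAN readthrough, fell at each time, from 13.3, 13 and 13.4 TPM in DMSO to 3.51, 3.22 and 4.19 TPM at 16 h (-1.62, SE 0.07). RBM25 was called at no time in the fit of all 30 libraries.

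NEAT1 is a long noncoding RNA of nuclear paraspeckles (chr11:65422798-65426532, plus strand). It had 9.13, 7.003 and 8.49 TPM in DMSO, 20.3, 18 and 19.9 TPM at 2 h, and 31.7, 28.9 and 34 TPM at 4 h. Later it had 10.6, 11.4 and 11.6 TPM at 8 h, and 13.8, 11.2 and 10.3 TPM at 16 h. It peaked at 4 h (1.83, SE 0.10, adjusted p = 9.08e-09) and stayed a little above DMSO later (0.42 and 0.47, not called in the fit of all 30 libraries). SHISA2, which restrains WNT and FGF receptors, peaked at 2 h, with 20.003, 18 and 21.4 TPM against 7.56, 6.70 and 7.90 TPM in DMSO (1.31, SE 0.08), and overlapped DMSO again at 16 h, with 6.27, 6.21 and 7.57 TPM (-0.13, not called). ACTA2, smooth muscle actin, rose at each time, from 5.11, 4.77 and 3.74 TPM in DMSO to 17, 15.9 and 14.1 TPM at 16 h (1.59, SE 0.08). RHOB, a small GTPase of endosomes, rose from 48.1, 50.2 and 46.3 TPM to 105, 113 and 121 TPM (1.21, SE 0.05).

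In cholesterol synthesis, falls were most numerous at 4 h. Of 25 tested genes, 3 rose and 7 fell at 2 h, 1 and 14 at 4 h, 3 and 9 at 8 h, and 5 and 5 at 16 h, with medians of -0.02, -0.16, -0.09 and -0.02. With median-ratio scaling these counts were 2 and 9, 1 and 16, 1 and 15, and 4 and 9. From 4 to 16 h 13 rose and 2 fell (15 and 1 with median-ratio scaling). IDI1, isopentenyl diphosphate isomerase, had 35.8, 35.9 and 36.8 TPM in DMSO and 22.1, 26.1 and 23.8 TPM at 4 h (-0.58, SE 0.06). INSIG1, which retains the sterol sensor in the endoplasmic reticulum, rose at 2 h, with 44.2, 42.6 and 46.8 TPM against 31.3, 29.7 and 30.6 TPM (0.53, SE 0.05), and was not called at 4 h. Of the AMPK subunits, PRKAB1 fell from 22.7, 24.5 and 23.2 TPM in DMSO to 16.7, 15.9 and 18.2 TPM at 2 h (-0.45, SE 0.05), PRKAG1 rose by 0.28 at 2 h and 0.42 at 4 h, and PRKAA2, a catalytic subunit, rose by 0.42 at 4 h. In the fit of all 30 libraries INSIG1 at 2 h, PRKAG1 at 2 h and PRKAA2 at 4 h were not called.

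**Figure D3:**
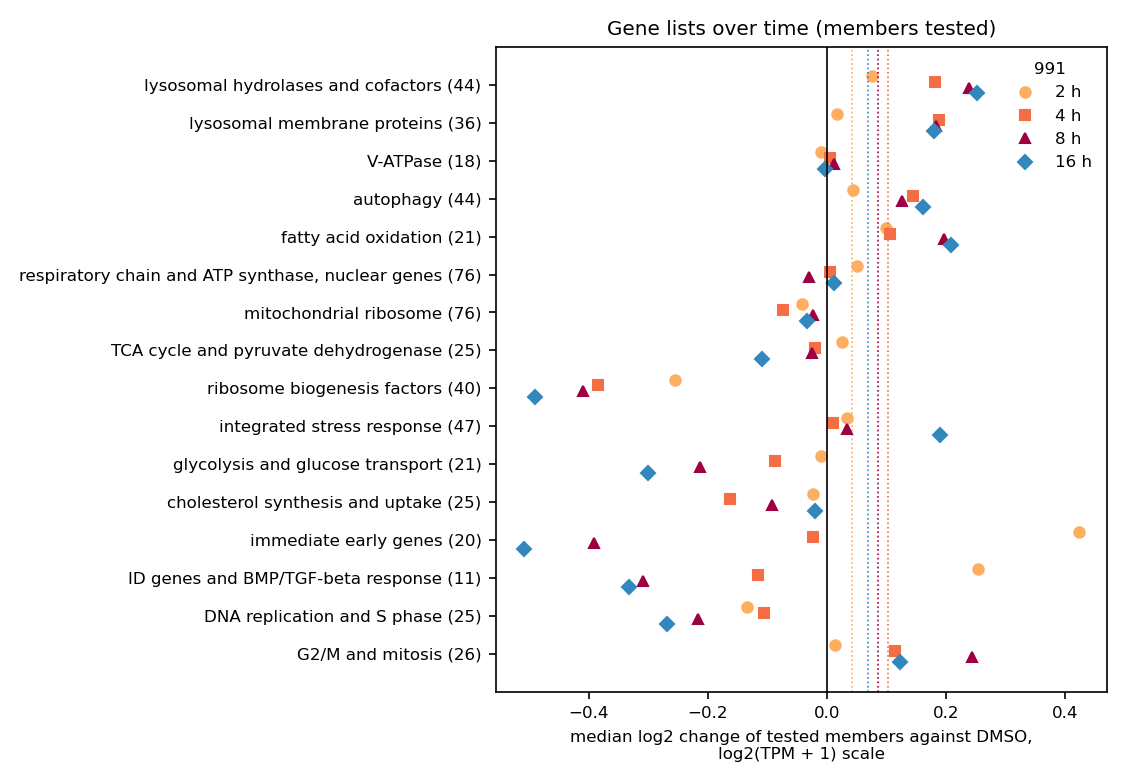
Median log2 change of the tested members of 16 gene lists at 2, 4, 8 and 16 h against DMSO (log2(TPM + 1) scale; dotted lines, medians of all tested genes; number tested in brackets). Ribosome biogenesis factors lie between -0.26 and -0.49, immediate early genes go from 0.42 to -0.51, and lysosomal hydrolases from 0.08 to 0.25.

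Whether the response needs the 5 serines of FNIP1 was asked by testing the difference between the SA5 and WT FNIP1 responses in all 30 libraries of the table. In SA5 cells 2 libraries stood apart from their group: DMSO replicate 1, with 5.47 TPM of FNIP1 and 26.9 TPM of FLCN, and 8 h replicate 1, with 45 TPM of FNIP1, against 164 to 195 TPM in the other 13. They were not apart in FNIP1 and FLCN alone. TOP2A had 8.62 TPM in DMSO replicate 1, against 86.8 and 80.4 TPM in replicates 2 and 3. In 8 h replicate 1 it had 49.2 TPM, against 119 and 116 TPM. LAMTOR2 went the other way in DMSO replicate 1, with 152 TPM against 68 and 60 TPM. Results are therefore given with and without these 2 libraries, as an alternative chosen after the data were seen. Of 13317 genes tested by limma with Benjamini-Hochberg adjustment, 0 (0%), 1 (0.00751%), 1 (0.00751%) and 2 (0.015%) differed in response at 2, 4, 8 and 16 h, and 607, 611, 364 and 1094 had an unadjusted p under 0.05. Without the 2 libraries 0, 0, 2 (0.015%) and 19 (0.143%) of 13290 did, the 19 being 14 higher in SA5 cells (0.105%) and 5 lower (0.0376%), and 649, 793, 715 and 1050 had an unadjusted p under 0.05. With all libraries the median difference of all genes was itself 0.24, 0.23, 0.15 and 0.28 on the log2 scale at the 4 times. It was 0.0005, -0.005, -0.09 and 0.03 without SA5 DMSO replicate 1. Differences below from all libraries are to be read against the first of these sets of medians.

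No difference was found for RRAGD or WIPI1. RRAGD in SA5 cells went from 2.78, 3.90 and 3.72 TPM in DMSO to 7.20, 5.82 and 6.59 TPM at 4 h. Its 4 h response differed from that of WT FNIP1 by 0.06 on the log2 scale (95% interval -0.26 to 0.38, adjusted p = 0.795), and by -0.05 (-0.32 to 0.21) without the 2 libraries. For WIPI1 the 4 h difference was 0.29 (-0.09 to 0.68), and 0.04 (-0.14 to 0.22) without them. For GAA it was -0.24 (-0.48 to 0.01), and -0.24 (-0.467 to -0.00403) without them, where the adjusted p was 0.829. These intervals bound the differences and do not show that the 2 forms act alike.

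CHAC1 rose more in SA5 cells in the values as deposited. It had 3.61, 3.86 and 3.61 TPM in SA5 DMSO libraries, 12, 11.9 and 11.9 TPM at 8 h and 11.6, 13.2 and 13.4 TPM at 16 h, against 7.45, 6.34 and 6.91 TPM and 6.64, 7.37 and 7.55 TPM in WT FNIP1 cells. The difference was 0.83 at 8 h (SE 0.13, adjusted p = 0.0371) and 0.87 at 16 h (SE 0.13, adjusted p = 0.0105). Without the 2 libraries it was 0.82 (adjusted p = 0.028) and 0.85 (adjusted p = 0.00646). In that fit it was also 0.78 at 2 h and 0.68 at 4 h, neither called (adjusted p = 0.052 and 0.103). At 2 h, where CHAC1 fell in WT FNIP1 cells, SA5 libraries had 4.12, 4.83 and 5.03 TPM. With the 2 libraries in the fit, the 8 and 16 h calls were lost after median-ratio scaling (0.64, adjusted p = 0.927, and 0.54, adjusted p = 0.406). They were also lost after quantile normalization (0.60 and 0.49). That at 8 h was also lost with the replicate block (adjusted p = 0.0885), with a pseudocount of 0.1 (adjusted p = 0.0717), and without SA5 DMSO replicate 2 or 3, any SA5 8 h library, WT FNIP1 DMSO replicate 1 or 3, or WT FNIP1 8 h replicate 2 or 3. That at 16 h was lost without SA5 16 h replicate 2 or 3, WT FNIP1 DMSO replicate 1 or WT FNIP1 16 h replicate 2. None of these alternatives was run with both outlying libraries left out. The 16 h response of ANKRD1 was lower in SA5 cells, by -1.01 (SE 0.16, adjusted p = 0.0105) and by -1.15 without the 2 libraries (adjusted p = 0.00199). Its SA5 levels were 0.04, 0.39 and 0.41 TPM in DMSO and 0.31, 0.35 and 0.21 TPM at 16 h. The ANKRD1 call was lost with a pseudocount of 0.1 (adjusted p = 0.333) and without SA5 16 h replicate 3, WT FNIP1 DMSO replicate 1 or WT FNIP1 16 h replicate 2. The difference at 4 h was SNORD15A, a small nucleolar RNA within RPS3, at 1.83 with all libraries and 1.77 without the 2 (adjusted p = 0.0521). It was also lost with a pseudocount of 0.1 and without SA5 DMSO replicate 1, SA5 4 h replicate 1 or 2, or any WT FNIP1 DMSO or 4 h library. Without the 2 outlying libraries SLC7A5 also differed, by 0.46 at 8 h and 0.43 at 16 h, and RHOB by -0.38 at 16 h, where the value with all libraries was 0.06. Among the 19 genes were also SESN2 (0.44), PSAT1 (0.42), MTHFD2 (0.34), SHMT2 (0.31) and MARS (0.28), higher in SA5 cells, and SQSTM1 (-0.25), lower. All were named after their values were seen.

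**Figure D4:**
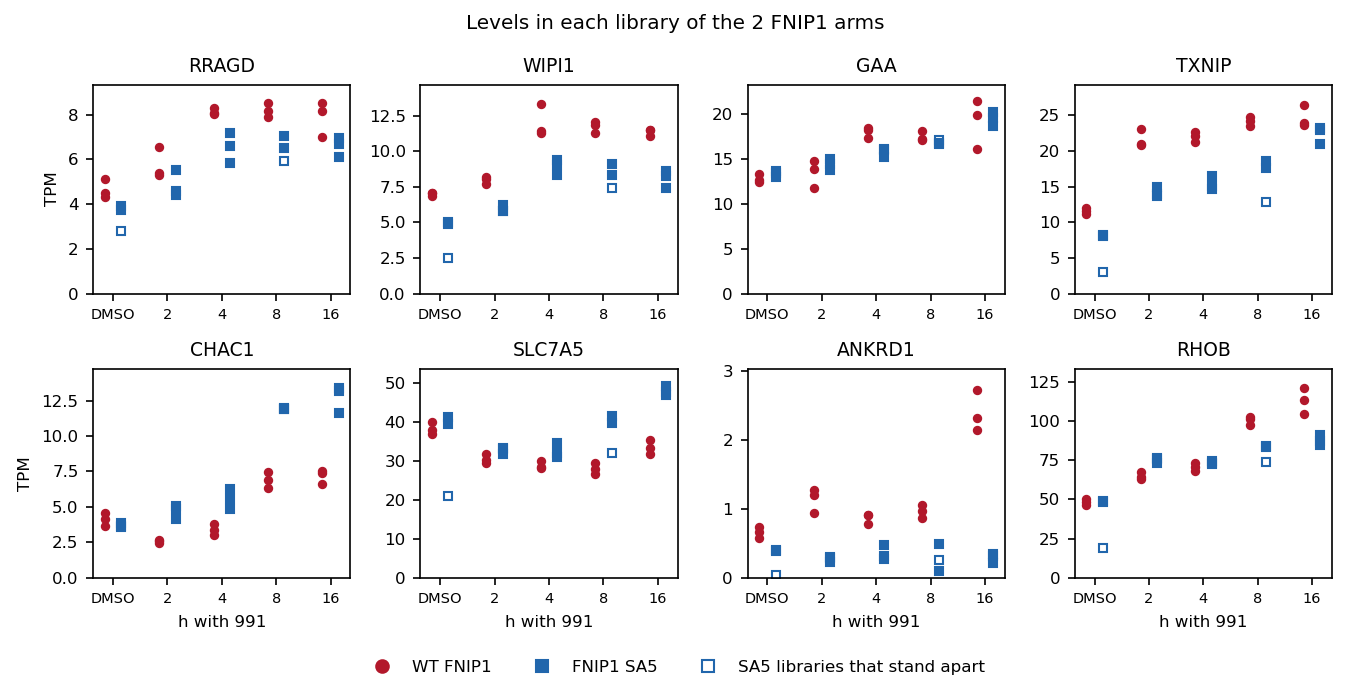
TPM of 8 genes in each library of WT FNIP1 (circles) and FNIP1 SA5 cells (squares; open squares, the 2 SA5 libraries that stand apart) over DMSO and 2, 4, 8 and 16 h of 991; axes start at 0. RRAGD rises in both, and CHAC1 is higher in SA5 at 8 and 16 h and already at 2 h. ANKRD1 at 16 h is 2.14 to 2.73 TPM in WT FNIP1 and 0.21 to 0.35 TPM in SA5.

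The series holds 4 other sets of control cells with 991 over the same times, each with its own DMSO and its own table: AMPK WT, TFEB/TFE3 WT, ESRRA WT and siControl cells; and cells without AMPK (AMPK KO). Of these, ESRRA WT and siControl cells share the high FNIP1 and FLCN RNA described above. Values are set side by side, each from its own fit. The AMPK table gives another transcript than the FNIP1 table for 2199 of the 27234 genes. Levels and changes from it, here and above, may therefore not refer to the same transcript. RRAGD at 4 h changed by 0.70 in WT FNIP1 cells, 0.51 in AMPK WT, 0.66 in TFEB/TFE3 WT, 0.69 in ESRRA WT and 0.75 in siControl cells, all called, and by 0.36 in AMPK KO cells, called too. At 16 h it had changed by 0.66, 0.50, 0.76, 0.58 and 1.04, and by -0.05, not called, in AMPK KO cells. WIPI1 rose in the 5 control sets at 4, 8 and 16 h and was called at no time in AMPK KO cells (-0.07 at 4 h, -0.21 at 16 h). TFEB RNA, called from 4 h in WT FNIP1 cells, was not called at 4 h in any of the other 5 (-0.30 to 0.11). The differences between these sets were not tested, since their tables were scaled separately.

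Other changes were shared with cells without AMPK or differed among the controls. HEXIM1 at 16 h changed by -1.41 in WT FNIP1, -1.45 in AMPK WT, -1.03 in TFEB/TFE3 WT, -0.81 in ESRRA WT, -0.59 in siControl and -0.89 in AMPK KO cells. NUPR1 at 16 h changed by 1.71, 2.54, 2.76, 1.58, 1.51 and 2.95 in that order, and ASNS by 0.87, 1.29, 0.73, 0.87, 0.83 and 1.91, so that both rose in AMPK KO cells. NEAT1 at 16 h rose in WT FNIP1 (0.47), TFEB/TFE3 WT (1.19) and siControl cells (1.498), was not called in ESRRA WT cells (0.33), and fell in AMPK WT (-2.21) and AMPK KO cells (-2.04), whose DMSO levels were 29.1 to 71.1 and 19.9 to 44 TPM. TXNIP rose in WT FNIP1, TFEB/TFE3 WT, ESRRA WT and siControl cells at 4 h (0.87, 1.75, 0.86 and 1.01) and was not called in AMPK WT cells (0.21). ATF4, which had fallen by 0.82 on the log2 scale at 4 h in WT FNIP1 cells, changed by -0.06, not called, in AMPK WT, -0.17 in TFEB/TFE3 WT, -0.34 in ESRRA WT, -0.43 in siControl and 0.60 in AMPK KO cells.

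Lysosomal hydrolases called at 16 h were 24 higher and 6 lower of 45 in AMPK WT cells, 32 and 3 of 46 in TFEB/TFE3 WT, 29 and 2 of 45 in ESRRA WT, 28 and 2 of 45 in siControl, and 23 and 7 of 44 in AMPK KO cells, where 40%, 40.6%, 31.2%, 43.1% and 31.6% of all genes tested rose. Genes of the integrated stress response called higher at 16 h were 37 of 47, 42 of 48, 42 of 48, 39 of 48 and 41 of 46 in that order, against 27 of 47 in WT FNIP1 cells. Ribosome biogenesis factors called lower at 16 h were 33, 35, 27, 34 and 25 of 40, where 24.1%, 17.6%, 15.2%, 12.1% and 23.4% of all genes fell. Across genes, Pearson's r of the 4 h changes with those of WT FNIP1 cells was 0.51 for AMPK WT, 0.69 for TFEB/TFE3 WT, 0.71 for ESRRA WT, 0.61 for siControl and 0.25 for AMPK KO cells, over 12437 to 12891 genes. Genes are not independent replicates, and these values only describe.

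**Figure D5:**
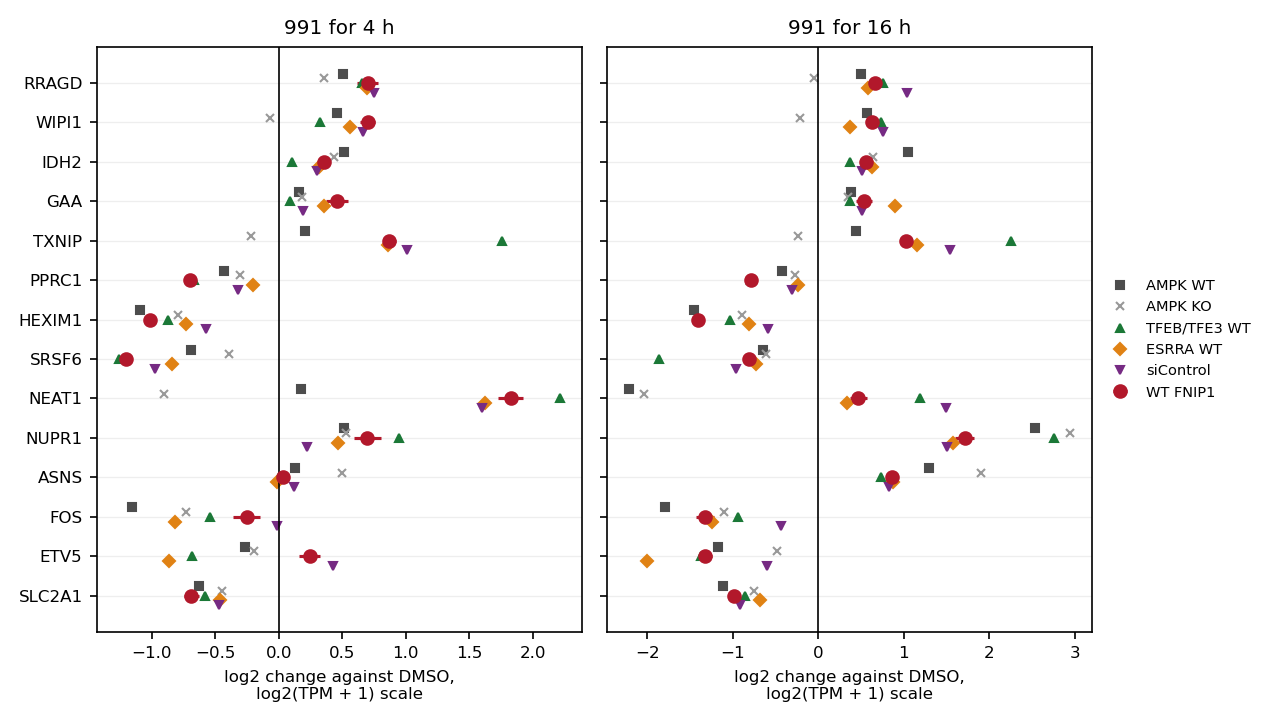
Log2 change of 14 genes against each set's own DMSO at 4 h (left) and 16 h (right) with 991, in WT FNIP1 cells (red circles, with standard errors) and 5 other sets of cells. RRAGD lies between 0.51 and 0.75 at 4 h in the control sets, and NEAT1 at 16 h goes from -2.21 in AMPK WT to 1.498 in siControl cells.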

How the data were processed

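The authors deposited gene expression as TPM in 5 tables. Per the submitters' processing notes FastQC, STAR and HOMER were used with GRCh38, with versions not given in the sources used here. TPM keep no read depth, so precision was judged from the spread between libraries. The deposited TPM of a WT FNIP1 library sum to 410713 to 415273 over 27234 genes. How the authors assigned reads by strand is not stated, so reads of overlapping genes may be shared.

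Of these genes, 13062 with at least 1 TPM in 3 of the 15 libraries were tested on log2(TPM + 1) with limma 3.58.1 in R 4.3.3 (moderated tests, variance trend, Benjamini-Hochberg adjustment over all genes, threshold 0.05). The SA5 difference was an interaction term over all 30 libraries. Other sets were fitted alone, since their tables were scaled separately. The fit was run on simulated data with independent noise, which cannot show effects of scaling or of spread shared between libraries.

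Same-numbered libraries had deviations from their group means that correlated between -0.107 and 0.132 (median 0.0228). Of the 15 libraries, 10 were closest to their own number. Numbers were not taken as pairs, and counts with a replicate block are given below. The text names a panel of the pathway, up to 12 non-overlapping rises and falls per time, and up to 3 per list and direction. A gene that the rule names is not reported here. SNORD15A, HADHB and the genes of the SA5 difference were named after their values were seen. Members and lists were chosen with earlier results of these data known. Alternatives were the pseudocount (0.1), the filter (none, or 5 TPM), median-ratio and quantile scaling, a replicate block, no trend, other sets of libraries in the fit, and each library left out. Promoters are RefSeq's (GRCh38.p14).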

Additional observations from a re-analysis of the deposited data

Results flagged for a closer look

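In 4 cases the response to 991 differed between FNIP1 SA5 and WT FNIP1 cells by the interaction test of limma with Benjamini-Hochberg adjustment. SNORD15A, a small nucleolar RNA, differed at 4 h by 1.833 on the log2 scale (adjusted p = 0.0192). In WT FNIP1 cells it had 1.36, 1.11 and 1.16 TPM in DMSO and 0.32, 0.31 and 0.30 TPM at 4 h, and in SA5 cells it was listed at 0, 0 and 0.32 TPM in DMSO and stood at 1.34, 1.82 and 0.89 TPM at 4 h. CHAC1 differed by 0.8345 at 8 h and by 0.867 at 16 h, higher in SA5 cells. ANKRD1 differed at 16 h by -1.011, lower in SA5 cells. The median difference of all genes in the same fit was 0.23, 0.15 and 0.28 at 4, 8 and 16 h.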

How the results depend on the processing

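Leaving out 1 library gave 3355 to 4436 genes at 2 h, 6182 to 6436 at 4 h, 6196 to 6507 at 8 h, 6264 to 6581 at 16 h, 3225 to 3426 between 4 and 16 h and 8718 to 9777 over the time course. The fit of all 30 libraries called 682, 2430, 2380, 2196, 902 and 3002 in that order, and the cause was not tested. It ended 334 of the 648 calls held by single named genes and gained 0, while median-ratio scaling ended 60, quantile normalization 54 and the pseudocount of 0.1 ended 5. With the replicate number as a block, 4244, 7009, 7113 and 7069 genes were called at the 4 times and 4095 between 4 and 16 h; 10 of 15 libraries were closest to their own number. Signs turned for MARS (-0.10) and ALDH18A1 (-0.12) at 4 h and SQSTM1 (-0.040) at 8 h with median-ratio scaling, and for FNIP2 (-0.0068), JDP2 (-0.25) and SESN3 (-0.21) at 4 h and ATF4 (0.014) at 16 h with quantile normalization.

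Genes whose response differed in SA5 cells at 2, 4, 8 and 16 h numbered 1, 0, 0 and 1 with the pseudocount of 0.1. They numbered 3 at 4 h and 2 at 8 h with no filter, 0 at 4 h and 1 at 16 h with 5 TPM, 0 at 8 h and 1 at 16 h with median-ratio scaling, 3 at 4 h and 0 at 8 h with quantile normalization, 0 at 8 h with the replicate block and 1 at 2 h with no trend. Without the 2 outlying libraries they numbered 0 at 4 h, 2 at 8 h and 19 at 16 h, and RHOB (-0.38) and FUBP1 (-0.26) turned lower in SA5 cells at 16 h. Leaving out 1 library gave 0 to 1, 0 to 4, 0 to 1 and 0 to 5 at the 4 times. Read depth could not be recovered from TPM.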
